A study of Homo sapiens and Mus musculus with 12 samples.

Results

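The genes described here are 5 factors of early NK cell commitment, Id2, Id3, Nfil3, Tox and Ets1, in mouse NK cells, and their human counterparts ID2, ID3, NFIL3, TOX and ETS1 in an NK cell line. They were taken by symbol, which gave 5 of the 22021 genes in the mouse count table and 5 of the 18304 in the human table (10 of 40325 in all), and all 10 passed the filter on low counts. RNA-seq had been performed on NK cells sorted as CD3- NK1.1+ from the spleens of C57BL/6J mice aged 8 to 12 weeks, with 3 WT and 3 KO libraries. WT mice were Ehmt2 flox/flox, and KO mice carried the same floxed alleles together with Ncr1 iCre, so that Cre came from the gene of NKp46 and acted only once Ncr1 had been switched on. The second experiment used NK92MI, a human NK lymphoma line engineered to make its own IL-2, treated with BIX-01294, an inhibitor of the H3K9 methyltransferase EHMT2, or with DMSO (3 libraries each). For NK92MI experiments the dose was 0.25 µM and the time 5 days, and no separate dose is given for the sequenced cultures. Neither the labels nor the methods state whether each library came from a separate mouse or culture, so the p-values measure the spread between libraries, which may be partly technical. The comparisons ask how genetic loss, or chemical inhibition, of EHMT2 goes with the transcripts of the commitment factors.

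ID proteins are helix-loop-helix proteins without a DNA-binding basic region. They pair with the E proteins (E2A, E2-2 and HEB, from Tcf3, Tcf4 and Tcf12) and keep them off E-box DNA, and Id2 in this way holds back T and B cell programmes in innate lymphocytes. NFIL3, a basic leucine zipper repressor, acts early in NK development downstream of IL-15 and upstream of Id2 and Eomes. TOX, an HMG-box protein, and ETS1, a winged-helix factor, are also needed for normal numbers of NK cells.

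The KO and WT libraries held 36384416 to 37438868 and 25891680 to 37236209 counts, and the BIX-01294 and DMSO libraries 16579469 to 17120135 and 16808809 to 17165446. Levels are TMM-normalized read counts (CPM, a count divided by the scaled library size). Ehmt2, the targeted gene, had 171, 143 and 137 CPM in KO NK cells against 275, 284 and 285 CPM in WT NK cells (log2 fold change −0.91, standard error 0.10, adjusted p = 0.0162 by edgeR), so reads of the gene remained in KO libraries. By Western blot the paper reports complete deletion of Ehmt2 in splenic NK cells of KO mice. Counts per gene do not show which exons or cells the remaining reads came from, and this was not tested. The genotype field of the KO libraries reads Ezh2-KO, while their titles and the study name EHMT2, which was followed. In NK92MI cells EHMT2 itself was lower with BIX-01294 (35.8 to 40.4 CPM) than with DMSO (54.3 to 61.6 CPM), with a log2 fold change of −0.58 ± 0.08 (SE, adjusted p = 1.01e-04 by edgeR).

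Because Id2 and Id3 are paralogs, the part of their coding sequences that is most alike is shown, to let the similarity of the transcripts be judged before their counts. The first line gives 90 bases of the mouse Id2 coding sequence (coding bases 141 to 230), which encode part of the helix-loop-helix region. In the other lines capitals mark bases that differ from mouse Id2 at the same place in an alignment without gaps.
Id2: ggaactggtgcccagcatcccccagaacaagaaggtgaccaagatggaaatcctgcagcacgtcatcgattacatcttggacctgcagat
ID2: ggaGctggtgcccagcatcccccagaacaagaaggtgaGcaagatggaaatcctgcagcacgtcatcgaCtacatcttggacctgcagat
Id3: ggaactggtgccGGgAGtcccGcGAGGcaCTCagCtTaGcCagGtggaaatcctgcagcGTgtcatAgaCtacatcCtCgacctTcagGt
ID3: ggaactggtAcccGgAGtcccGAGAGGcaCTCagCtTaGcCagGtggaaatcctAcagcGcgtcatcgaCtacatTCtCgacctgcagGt
Human ID2 shared 87 of the 90 bases with mouse Id2 (96.7%), whereas mouse Id3 and human ID3 (coding bases 156 to 245) each shared 65 (72.2%). The longest run shared by the whole coding sequences of Id2 and Id3 was 15 bases in mouse, and that of ID2 and ID3 was also 15 bases in human. The sequences are those of the annotation, not of these libraries.

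Id2 was the member with the clearest rise in KO NK cells, by 1.85-fold, and Nfil3 rose by 1.57-fold. Tox and Ets1 had higher means in KO and Id3 a lower mean, but these did not pass the test. In all, 2 of 5 members were called at an adjusted p under 0.05 (edgeR's quasi-likelihood test, Benjamini-Hochberg adjustment over 13189 genes), both higher. Of all genes tested 11.9% were called, 4.44% as higher and 7.43% as lower.

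Id2 (chr12:25093799-25097140, minus strand of GRCm38) was at 692, 751 and 824 CPM in KO replicates 1, 2 and 3 and at 389, 487 and 351 CPM in WT replicates 1, 2 and 3. Every KO library lay above every WT library, and the gap between the groups was wider than the range within either. The means were 756 ± 66.5 CPM in KO and 409 ± 70.0 CPM in WT (SD, n = 3), and the log2 fold change was 0.89 ± 0.14 (SE, 95% interval 0.56 to 1.21, adjusted p = 0.0269 by edgeR). An exact permutation test (two-sided) gave p = 0.1, and no lower value can be had from 3 against 3 libraries. The paper also reports Id2 mRNA as higher in KO NK cells by RT-qPCR, with less H3K9me2 signal at the gene by CUT&Tag. The edgeR call of Id2 was kept without KO replicate 1 or WT replicate 2 and lost without any one of the other libraries, with adjusted p between 0.00256 and 0.131 and log2 fold changes between 0.78 and 1.03 by edgeR. In the fits that lost it few genes of any kind were called. Their number was 0 without KO replicate 2 or 3, 99 without WT replicate 1 and 14 without WT replicate 3.

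Nfil3 (chr13:52967209-52981073, minus strand) was at 46.9, 54.0 and 48.7 CPM in KO and at 24.8, 35.3 and 35.1 CPM in WT. The groups were separate here too, with WT replicate 1 well below the other WT libraries. Its log2 fold change was 0.65 ± 0.15 (SE, 95% interval 0.31 to 0.995, adjusted p = 0.0406 by edgeR). With 1 library left out it lay between 0.50 and 0.74 with adjusted p between 0.0152 and 0.155, and the call was lost in the same 4 cases as that of Id2.

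Tox (chr4:6686353-6991557, minus strand) was at 38.2, 59.6 and 56.4 CPM in KO and at 29.5, 42.6 and 32.6 CPM in WT. The groups overlapped, since KO replicate 1 lay below WT replicate 2. The log2 fold change of 0.56 ± 0.20 (SE, 95% interval 0.10 to 1.02) had an adjusted p of 0.0905 by edgeR, and DESeq2 gave 0.55 with an adjusted p of 0.0350. DESeq2 called 4 of 5 members, all but Ets1, and 23.4% of all genes. Its call came without KO replicate 1 (0.73, adjusted p = 0.0385 by edgeR) and without WT replicate 2 (0.73, adjusted p = 0.0283 by edgeR).

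Ets1 (chr9:32636221-32757820, plus strand) was at 598, 695 and 779 CPM in KO and at 501, 669 and 523 CPM in WT. Here WT replicate 2 lay inside the KO range. The log2 fold change was 0.29 ± 0.15 (SE, 95% interval −0.05 to 0.63, adjusted p = 0.192 by edgeR), and only without WT replicate 2 was it called among the fits that left out 1 library (0.43, adjusted p = 0.0463 by edgeR).

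Id3 (chr4:136143497-136145755, plus strand) was at 16.1, 10.1 and 7.10 CPM in KO and at 19.5, 14.6 and 24.5 CPM in WT. It was the 1 member with a lower mean in KO, and the groups overlapped, since KO replicate 1 exceeded WT replicate 2. The log2 fold change was −0.82 ± 0.31 (SE, 95% interval −1.53 to −0.10, adjusted p = 0.104 by edgeR), and DESeq2 gave −0.83 with an adjusted p of 0.0285. Without KO replicate 1 the log2 fold change was −1.19 (adjusted p = 0.0379 by edgeR) and without WT replicate 2 it was −0.98 (adjusted p = 0.0476 by edgeR).

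**Figure D1:**
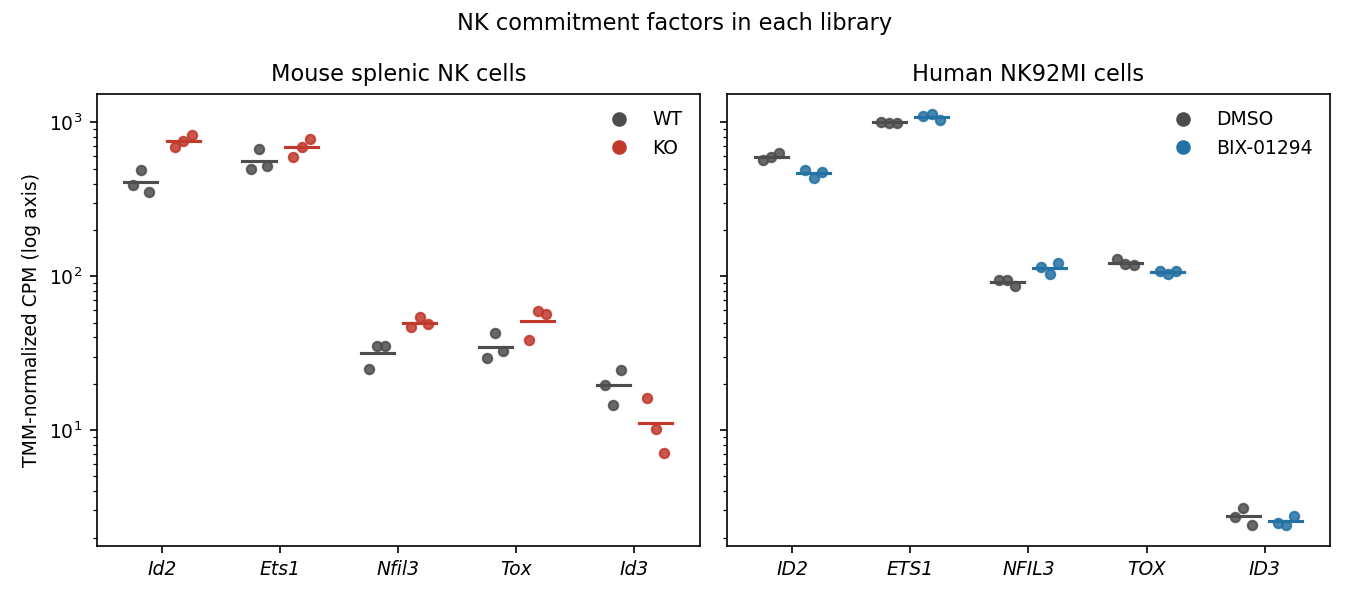
TMM-normalized CPM (log axis) of the 5 members in each library (points) with group means (bars), mouse on the left and human on the right. Id2 and Nfil3 lie higher in every KO library than in any WT library, while ID2 lies lower in every BIX-01294 library (437 to 491 CPM) than in any DMSO library (566 to 636 CPM).

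The sorted libraries differed in more than Ehmt2, since the summed levels of several cell type marker lists did not overlap between KO and WT. The 12 pan-NK genes, among them Ncr1, Klrb1c (NK1.1), Klrk1 (NKG2D) and Prf1 (perforin), all had higher means in KO, 6 were called, and their summed level was 10891 to 12275 CPM in KO and 5989 to 9503 CPM in WT. All 16 macrophage and monocyte markers were lower in KO, 10 of them called, with sums of 1614 to 3000 CPM against 3229 to 9968 CPM. All 12 B cell markers were lower, 1 of them called (sums 127 to 613 against 655 to 1850 CPM). The 9 neutrophil markers tested, with 3 calls, had sums of 29.5 to 186 against 166 to 1383 CPM. The 9 dendritic cell markers, with 2 calls, had sums of 216 to 403 against 472 to 824 CPM, and the 8 erythroid markers, all of them called as lower, 120 to 147 against 268 to 432 CPM. The sums of the 10 T cell markers overlapped (227 to 373 against 274 to 369 CPM, with Cd3g called as higher), as did those of the 9 ILC1 markers, without a call (334 to 446 against 416 to 524 CPM). In bulk libraries such as these, fewer cells of a type and less RNA per cell cannot be told apart.

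WT replicate 2, the WT library with the most Id2, Tox and Ets1 and the least Id3, also had the highest pan-NK sum of the WT libraries (9503 CPM) and the lowest macrophage and B cell sums (3229 and 655 CPM). KO replicate 1, the KO library with the least Id2, Nfil3, Tox and Ets1 and the most Id3, had the lowest pan-NK sum of the KO libraries (10891 CPM) and the highest macrophage and B cell sums (3000 and 613 CPM). Between WT replicates 1 and 3 the order was mixed. Replicate 1 had more Id2 (389 against 351 CPM) with a higher macrophage sum (9968 against 6700 CPM) and a lower B cell sum (1090 against 1850 CPM). When the libraries were scaled to the summed pan-NK genes in place of all genes, the median log2 fold change of all genes moved to −0.76 and the calls from 585 higher and 980 lower to 41 higher and 8684 lower. Under that scaling Id2 had a log2 fold change of 0.15 ± 0.21 (SE, adjusted p = 0.516 by edgeR), and Nfil3 (−0.10, adjusted p = 0.707), Tox (−0.18, adjusted p = 0.483) and Ets1 (−0.45, adjusted p = 0.0618) turned negative. Id3 was then called as lower, with a log2 fold change of −1.61 ± 0.37 (SE, adjusted p = 0.00398 by edgeR). One factor a library shifts every gene nearly alike, so these values differ from those under TMM by little more than the shift of the median. The scaling genes include Prf1 and Il2rb, whose mRNA the paper reports by RT-qPCR as higher in KO NK cells. This scaling would also remove any rise per cell that Id2 or Nfil3 shared with them. Whether any of these rises is a rise per cell was not tested, and the values under this scaling are not corrected for cell composition. The part of cell composition in the rises of Id2 and Nfil3 was not tested.

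**Figure D2:**
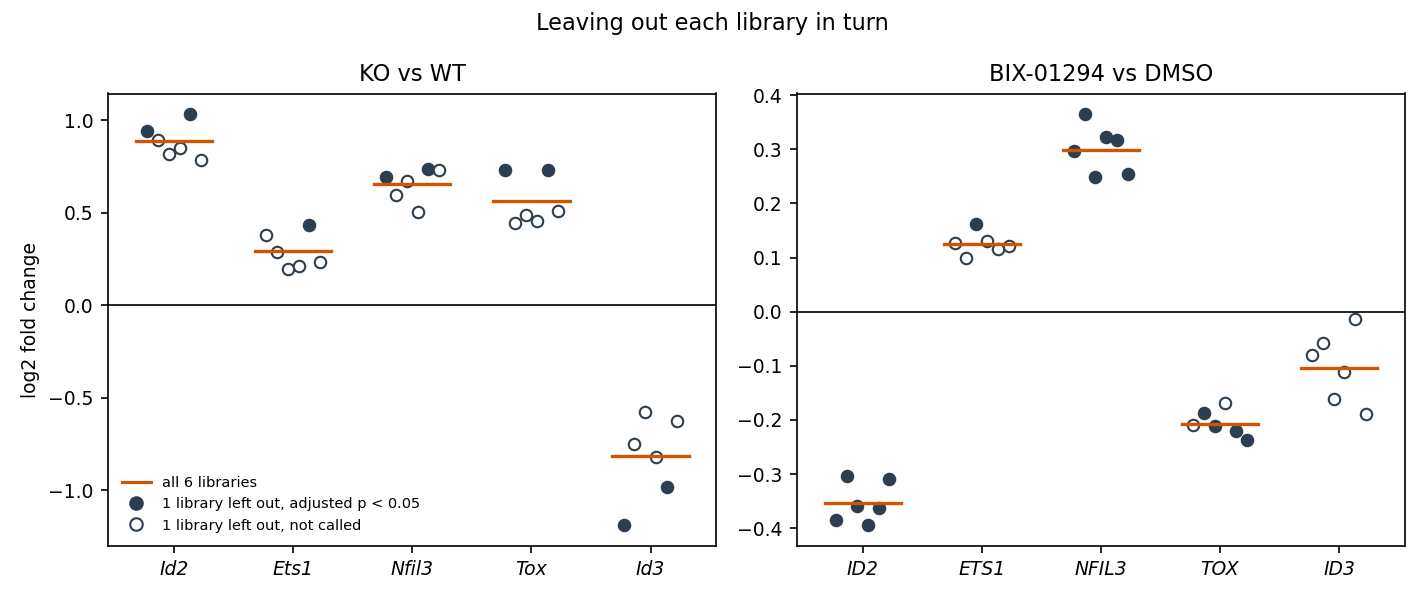
Log2 fold change of each member with all 6 libraries (orange line) and with each library left out in turn (points, filled where the adjusted p was under 0.05 by edgeR), KO vs WT on the left and BIX-01294 vs DMSO on the right, with separate vertical scales. No member changed sign in either comparison, and in mouse the calls of Id2 and Nfil3 came and went with single libraries, whereas those of ID2 and NFIL3 were kept in all 6 human fits. In the mouse fits that lost these calls, 0 to 99 of all genes were called.

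In NK92MI cells the changes were smaller and the libraries closer together. ID2 and TOX fell and NFIL3 rose with BIX-01294, ETS1 was slightly higher without passing the test, and ID3 had few counts. In all, 3 of 5 members were called (edgeR, adjusted p under 0.05), beside 36.9% of the 12727 genes tested, 18.4% as higher and 18.4% as lower. With so many genes called, this count is not a result about the members. BIX-01294 libraries are given as replicates 1, 2 and 3, and the DMSO libraries, whose columns carry no link to the numbered samples, in the order of the table.

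ID2 (chr2:8678845-8684461, plus strand of GRCh38) was at 491, 437 and 474 CPM with BIX-01294 and at 566, 592 and 636 CPM with DMSO. The groups did not overlap. The means were 468 ± 27.7 CPM and 598 ± 35.2 CPM (SD, n = 3), and the log2 fold change was −0.35 ± 0.07 (SE, 95% interval −0.50 to −0.21, adjusted p = 0.00104 by edgeR). Leaving out each library in turn gave −0.39 to −0.30, and the call was kept each time.

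ID2-AS1, a noncoding RNA on the opposite strand whose start sites lie 193 and 195 bases from that of ID2, was at 49, 56 and 45 counts with BIX-01294 and at 87, 88 and 88 counts with DMSO. It fell as well, with a log2 fold change of −0.79 ± 0.18 (SE, adjusted p = 0.00382 by edgeR). In the GENCODE v44 annotation both genes overlap, and the strand setting of the counting is not stated, so reads of the pair cannot be told apart where they overlap. Since the pair fell together, the 250 bases before the ID2 start site are shown (chr2:8681806-8682055, plus strand, RefSeq, GRCh38.p14), with an E-box (CANNTG) and 3 CCAAT boxes (CCAAT or its reverse complement) in capitals.
ID2 promoter: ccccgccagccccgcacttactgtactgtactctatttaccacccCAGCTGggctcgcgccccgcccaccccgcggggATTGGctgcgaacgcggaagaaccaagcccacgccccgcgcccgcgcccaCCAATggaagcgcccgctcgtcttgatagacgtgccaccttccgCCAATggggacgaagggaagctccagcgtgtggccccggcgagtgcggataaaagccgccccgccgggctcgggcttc
The E-box began 205 bases, and the CCAAT boxes 172, 122 and 78 bases, before the start site. Of 35116 RefSeq promoters of 300 bases (250 before to 50 after the start), 68.7% held an E-box and 34.6% a CCAAT box on either strand. Of the other human members, ID3 and NFIL3 had entries in the same table, and the ID3 promoter held no match to either motif. Of 2 NFIL3 promoters, the one at chr9:91423783-91424082 held 2 CCAAT boxes and the other neither motif. GGAA, the short core bound by ETS factors, was found 4 times in the ID2 promoter, 3 times in that of ID3, and 1 and 4 times in those of NFIL3, and 95.5% of all promoters held it. None of these promoters held the longer CCGGAA (17.2% of all promoters), which contains GGAA, or TTANGTAA, the element bound by NFIL3 (2.18%). A match is a description of the letters and no match bears only on the window searched.

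NFIL3 (chr9:91409045-91423832, minus strand) was at 114, 103 and 122 CPM with BIX-01294 and at 95.1, 94.4 and 86.3 CPM with DMSO. The groups did not overlap. It rose with a log2 fold change of 0.30 ± 0.07 (SE, 95% interval 0.14 to 0.46, adjusted p = 0.00629 by edgeR), between 0.25 and 0.36 with each library left out, and the call was kept each time. Its direction was thus higher in both comparisons under TMM scaling, and it turned negative in mouse under the pan-NK scaling.

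TOX (chr8:58805412-59119147, minus strand) was at 107, 104 and 107 CPM with BIX-01294 and at 130, 121 and 118 CPM with DMSO. The groups did not overlap, although the difference was small. The log2 fold change was −0.21 ± 0.06 (SE, 95% interval −0.35 to −0.07, adjusted p = 0.0206 by edgeR), and the call was lost without BIX-01294 replicate 1 (adjusted p = 0.0760) and without the first DMSO library (−0.17, adjusted p = 0.129). TOX-DT, a noncoding RNA on the opposite strand that overlaps the start of TOX, had a log2 fold change of −0.22 ± 0.12 (SE, adjusted p = 0.171 by edgeR).

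ETS1 (chr11:128458761-128587558, minus strand) was at 1095, 1132 and 1039 CPM with BIX-01294 and at 1010, 990 and 996 CPM with DMSO. The groups did not overlap, but the log2 fold change of 0.12 ± 0.06 (SE, adjusted p = 0.108 by edgeR) did not pass. Without BIX-01294 replicate 3 it was 0.16 and called (adjusted p = 0.0369 by edgeR). Groups without overlap were seen for 4 of 5 human members (NFIL3 and ETS1 as higher, ID2 and TOX as lower) and for 47.9% of all genes tested, 24.1% as higher and 23.9% as lower, and in mouse for 2 of 5 members (both higher) and 38.5% of all genes, 19.1% as higher and 19.3% as lower.

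ID3 (chr1:23557926-23559501, minus strand) had few reads, with 41, 41 and 47 counts with BIX-01294 and 47, 53 and 41 counts with DMSO. These counts correspond to 2.41 to 2.77 CPM and 2.43 to 3.10 CPM, and the groups overlapped. The log2 fold change was −0.10 ± 0.22 (SE, adjusted p = 0.748 by edgeR), with a 95% interval of −0.58 to 0.37, which covers counting error and the spread between libraries together.

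**Figure D3:**
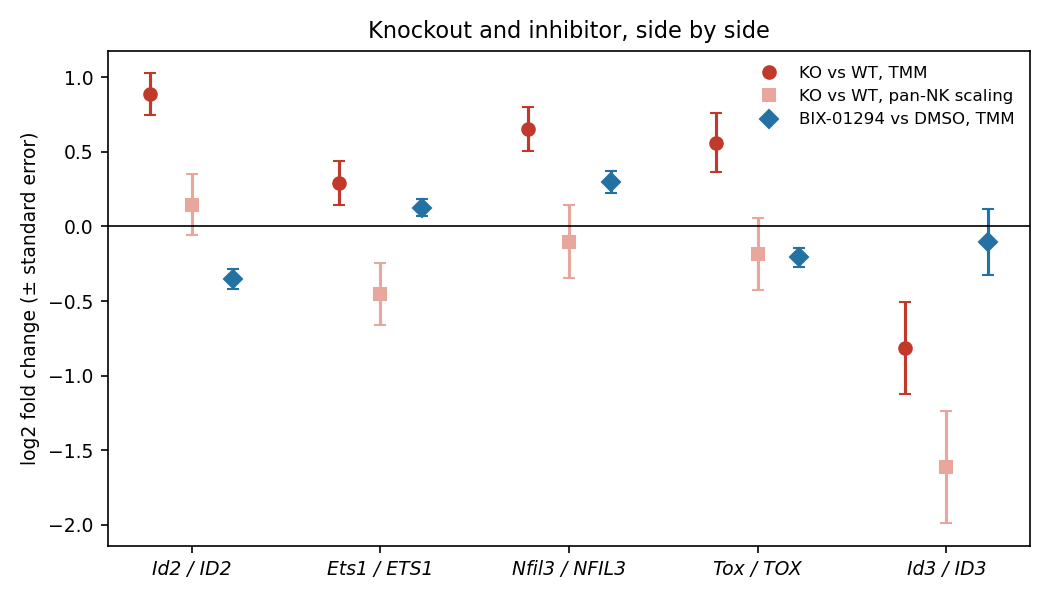
Log2 fold change of each member (points) with its standard error (bars) for KO vs WT under TMM scaling and under scaling to the pan-NK genes, and for BIX-01294 vs DMSO under TMM scaling. Id2 and ID2 lie on opposite sides of 0 under TMM scaling (0.89 and −0.35), Nfil3 and NFIL3 both lie above 0 (0.65 and 0.30), and Nfil3, Tox and Ets1 fall below 0 under pan-NK scaling.

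Levels between members were compared per kilobase of merged exons. Id2 led in every group, at 310 CPM per kb in KO, 168 in WT, 211 with BIX-01294 and 270 with DMSO, followed by Ets1 or ETS1 at 81.5, 66.6, 152 and 140 CPM per kb. Nfil3 came next, at 24.6 CPM per kb in KO and 15.7 in WT, and NFIL3 at 55.0 with BIX-01294 and 44.7 with DMSO. The order of the lowest pair differed. In KO, Tox at 6.76 and Id3 at 6.20 CPM per kb had overlapping ranges. In WT, Id3 at 10.9 CPM per kb overlapped Nfil3 and lay above Tox at 4.58. In NK92MI cells TOX was at 26.1 and 30.1 CPM per kb with BIX-01294 and DMSO, and ID3 at 1.71 and 1.84. All neighbours in the human order had separate ranges.

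The balance of ID transcripts was also expressed as ratios of counts within a library, which no scaling between libraries can change. The ratio of Id2 to Id3 was 43.0, 74.2 and 116 in KO and 19.9, 33.4 and 14.3 in WT. The groups were separate (p = 0.1 by the exact permutation test), and KO replicate 1 and WT replicate 2 again lay nearest to the other group. In NK92MI cells the ratio of ID2 to ID3 was 171 to 197 with BIX-01294 and 191 to 262 with DMSO, and these ranges overlapped.

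Id2 counts for each count of the E proteins it binds (Tcf3, Tcf4 and Tcf12 summed) were 1.88, 1.76 and 2.06 in KO and 0.891, 1.19 and 0.839 in WT. With BIX-01294 the human ratio was 1.93, 1.66 and 1.91, and with DMSO 2.33, 2.61 and 2.71. The groups were separate in both experiments, in opposite directions (two-sided exact permutation test, p = 0.1 in each). Set against Tcf3 alone, the ratio was 3.43 ± 0.34 in KO and 1.86 ± 0.32 in WT, and 4.09 ± 0.33 with BIX-01294 and 5.13 ± 0.36 with DMSO (SD, n = 3), again without overlap. These ratios compare reads and not protein, and in mouse they still hold reads of whatever other cells the sorted samples contained.

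**Figure D4:**
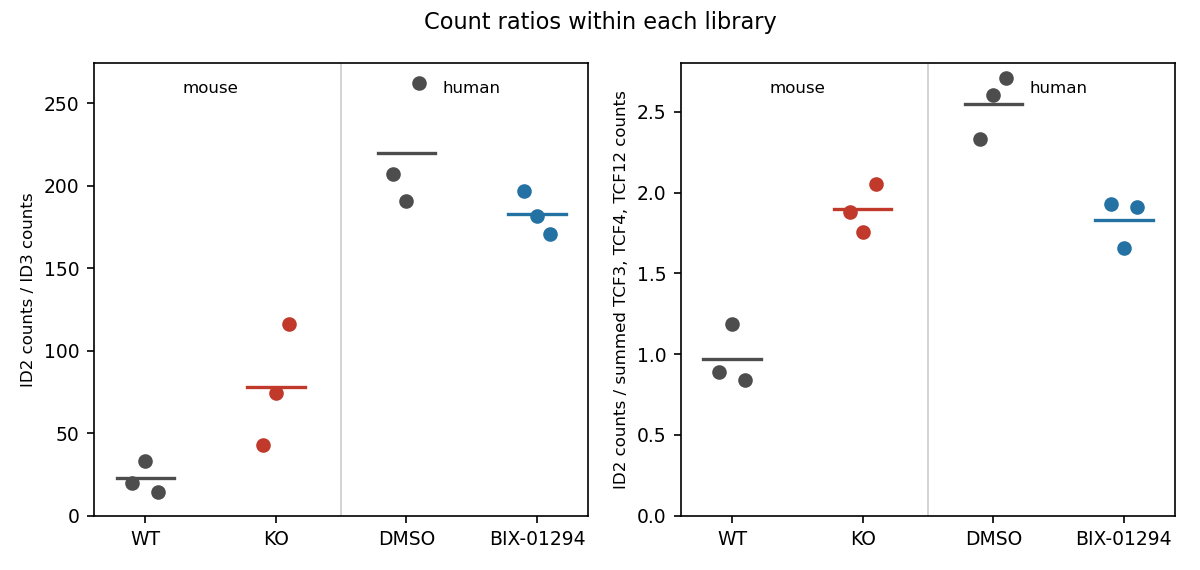
Ratio of ID2 to ID3 counts (left) and of ID2 counts to the summed counts of TCF3, TCF4 and TCF12 (right) in each library (points) with group means (bars), with mouse genes in WT and KO and human genes in DMSO and BIX-01294. The ratio to E protein counts is 1.76 to 2.06 in KO and 0.839 to 1.19 in WT, and it is 1.66 to 1.93 with BIX-01294 and 2.33 to 2.71 with DMSO.

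The remaining genes of the pathways were followed with lists chosen around the members. Directions in mouse hold under TMM scaling. The pan-NK scaling lowers all genes nearly alike, by the shift of the median given above, and moved Cish to 0.29, Tbx21 to 0.18, Gfi1 to 0.14, Bhlhe40 to −0.20, Jak3 to −0.07 and Il2rg to −0.27, none of them called. The shares called among all genes, 11.9% in mouse and 36.9% in human, stand beside every count of these lists. In either species a count near that share is not a result about its list. Of the ID family in mouse, Id1 had 4.42 ± 0.51 CPM in KO against 5.64 ± 1.63 CPM in WT (SD, n = 3; log2 fold change −0.35, adjusted p = 0.312 by edgeR), and Id4 had 2 to 4 counts in a library. Human ID1 and ID4 had no row in the human count table.

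Among the E proteins and their partners, none of the 5 mouse genes was called as higher and 2 were called as lower (median log2 fold change −0.55, against 0.01 over all genes). The classical E protein gene Tcf3 was level, with 221 ± 17.6 CPM in KO against 221 ± 9.07 CPM in WT (log2 fold change 0.00, standard error 0.09). The calls fell on Tal1 (−0.68, adjusted p = 0.0327) and Lyl1 (−0.74, adjusted p = 0.0429), tissue-restricted partners of E proteins that are known for blood stem cells and the erythroid and myeloid lineages. In human, 1 of 3 genes was called, TCF12, which rose from 75.8 ± 1.84 to 92.7 ± 6.94 CPM (log2 fold change 0.29, adjusted p = 0.00595 by edgeR).

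Of lymphoid genes known to respond to E proteins, 1 of 17 tested in mouse was called. This was Gfi1, a zinc finger repressor, at 63.4 CPM in KO and 35.0 in WT (log2 fold change 0.86, adjusted p = 0.0327 by edgeR), and the list had a median of 0.22. In human, 5 of 10 rose and 2 fell (median 0.31, against −0.01 over all genes). CCR7, the lymph node homing receptor, rose from 41.0 ± 4.25 to 198 ± 11.9 CPM (log2 fold change 2.27, adjusted p = 1.95e-09). BCL11B, a T lineage factor, rose less (0.38, adjusted p = 0.00228), as did GATA3 (0.35, adjusted p = 0.00273). IKZF1, which encodes Ikaros, fell by 0.55 on the log2 scale (adjusted p = 6.98e-05).

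NFIL3 shares binding elements with the PAR bZIP factors and takes part in the circadian clock. Of 17 such genes in mouse, 2 were called, both higher (median 0.15), namely Nfil3 itself and Bhlhe40, a basic helix-loop-helix repressor (277 ± 20.7 against 191 ± 30.2 CPM, log2 fold change 0.54, adjusted p = 0.0419 by edgeR). In human, 4 of 15 rose and none fell (median 0.25). BHLHE40 rose from 697 ± 27.4 to 1478 ± 103 CPM (1.08, adjusted p = 7.51e-08), NR1D2 from 48.6 to 92.3 CPM (0.93, adjusted p = 7.71e-07) and NR1D1 from 6.88 to 9.75 CPM (0.50, adjusted p = 0.0218), the last pair encoding REV-ERB repressors of the clock. The list counts include NFIL3 itself.

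Of the TOX family, no mouse gene was called among 4 (median −0.03). Tox2 was at 2.61 CPM in KO and 4.23 in WT (log2 fold change −0.70, adjusted p = 0.105 by edgeR). In human, TOX2, also implicated in NK development, fell more than TOX, from 172 ± 9.25 to 119 ± 6.05 CPM (−0.54, adjusted p = 3.97e-05), while the broadly expressed TOX4 rose (0.20, adjusted p = 0.0318).

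Of the ETS family, 6 of 20 mouse genes were called, all lower (median −0.25). Spi1, which encodes the myeloid and B cell factor PU.1, had 251 ± 73.2 CPM in KO against 485 ± 100.1 CPM in WT (−0.95, adjusted p = 0.0433 by edgeR), and Spic, a factor of red pulp macrophages that is also in the macrophage list, at 27.3 and 132 CPM (−2.28, adjusted p = 0.0420). Erg, an endothelial and stem cell factor, was at 1.48 and 4.12 CPM (−1.48, adjusted p = 0.0327). The repressors Etv6 (−0.58, adjusted p = 0.0269) and Etv3 (−0.40, adjusted p = 0.0350) fell less. The macrophage and B cell sums given above moved in the same direction, and their part in these falls was not tested. In NK92MI cells 5 of 17 rose and 2 fell (median 0.12), a share called near that of all human genes. ETV3 (0.49, adjusted p = 1.22e-04), ETS2 (0.53, adjusted p = 2.57e-04), ETV5 (0.48, adjusted p = 0.00124) and ELF2 (0.27, adjusted p = 0.0122) rose, and GABPA fell by 0.23 on the log2 scale (adjusted p = 0.0139).

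The signalling genes that link IL-15 to Nfil3 had 3 of 19 called in mouse, all higher (median 0.24). These were Cish, a feedback inhibitor of cytokine signalling (28.6 ± 3.19 against 13.8 ± 1.34 CPM, log2 fold change 1.05, adjusted p = 0.0181 by edgeR), Jak3 (0.72, adjusted p = 0.0279) and Il2rg, the common gamma chain (0.47, adjusted p = 0.0472). In human, 5 of 19 rose and 7 fell (median 0.03). CISH was among those that fell, from 303 ± 0.72 to 254 ± 18.0 CPM (−0.25, adjusted p = 0.00791), and IL2RG among those that rose (0.65, adjusted p = 0.00217).

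Of 20 mouse factors that act with or after the members, 1 was called, Tbx21, which encodes T-bet (632 ± 81.3 against 339 ± 89.4 CPM, log2 fold change 0.90, adjusted p = 0.0368 by edgeR). The paper reports Tbx21 mRNA too as higher in KO NK cells by RT-qPCR. Under TMM scaling 18 of the 20 were higher in KO (median 0.21), beside 6797 of all 13189 genes tested. Under the pan-NK scaling 2 of the 20 were higher and 18 lower. Eomes was at 743 CPM in KO and 444 in WT (0.74, adjusted p = 0.0962). In human, 5 of 18 rose and 6 fell (median −0.01). TBX21 fell from 232 ± 9.82 to 168 ± 6.10 CPM (−0.46, adjusted p = 7.61e-05), so that the T-bet gene, like ID2, was lower with BIX-01294 and higher in KO under TMM scaling. In NK92MI cells 4 of 11 pan-NK genes rose and 4 fell (median 0.04), and of 6 T cell markers 1 rose and 1 fell. The summed level of the pan-NK genes was nevertheless higher in every BIX-01294 library (6249 to 7589 CPM) than in any DMSO library (4999 to 5298 CPM), with GZMA, the granzyme A gene, at 3249 and 1724 CPM on average. The summed T cell markers were at 797 to 907 against 755 to 781 CPM. The part of these differences in the changes of the human members was not tested.

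By library-to-library pattern, Tox and Ets1 were the 2 members most alike in mouse, with a root mean square difference of 0.18 in log2 CPM, each gene centred on its mean over 6 libraries. Id3 was the least like the others (0.80 to 1.03). Among 9127 genes with a mean of at least 10 CPM, those nearest to Id2 were Adora2a, an adenosine receptor gene (0.05), Pgap3 (0.05) and Klrb1f, an NK receptor gene (0.08). Nearest to Nfil3 were Tnfsf14, Llgl2 and Zgpat (0.07 to 0.09), to Tox Itgal, Ikzf3 and Peak1 (each 0.06), to Ets1 Sun2, Trim14 and Plcxd2 (each 0.03), and to Id3 Milr1, Rasgrp4 and Capg (0.09 to 0.14). In NK92MI cells, among 8552 genes, the nearest were HACL1, CYRIB and RBM3 to ID2 (each 0.03), FDFT1, ATG101 and TICAM1 to NFIL3 (0.02 to 0.03), LYN, BCKDHB and NUGGC to TOX (0.02 to 0.03), WASF2, KPNA1 and TTC39C to ETS1 (each 0.01), and CTDSP1, COA4 and DDX41 to ID3 (0.02 to 0.03). These distances describe 6 libraries a species and hold the difference between the groups as well as the spread within them. They take no account of differences in depth and composition between the libraries.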

How the data were processed

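RNA-seq counts of mouse splenic NK cells (3 KO, 3 WT) and NK92MI cells (3 BIX-01294, 3 DMSO) were used. Per the labels and methods, the authors trimmed reads with fastp 0.23.4, used STAR 2.7.11b with 2 mismatches for alignment (mouse to GRCm38, human to GRCh38) and HTSeq 2.0.3 for counting, and deposited raw counts per gene, which they compared with DESeq2. The annotation release and strand setting are not given in the sources used here. Positions and lengths came from GENCODE annotations of the same builds, promoters from RefSeq.

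Each species was fitted with edgeR 4.0.16 in R 4.3.3 (TMM, filterByExpr, quasi-likelihood test, Benjamini-Hochberg adjustment over all genes, calls at an adjusted p under 0.05). The thresholds of the study (0.01 and a log2 fold change of 0.5), DESeq2 1.42.0, limma-voom 3.58.1, other scalings and filters, and leaving out each library were alternatives. The procedure was tested on simulated data. Counting error at this depth is small except for genes with few counts (ID3, ID2-AS1, Id4). The control columns of the human table are named CON-1, CON-2 and CON-3. No label links these names to the DMSO samples, and they were taken as the DMSO group.

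The members and lists were chosen with earlier results of these data known. Named besides the members were called genes of their families (up to 5 a list and species by smallest adjusted p), Ehmt2, and the 3 genes most alike in pattern. Genes named outside this rule were chosen after their values were seen. They were Id1, Id4, Tcf3, Tox2, cell type markers, ID2-AS1 and TOX-DT. Also among them were lymphoid genes known to respond to E proteins, genes of IL-15 signalling and factors acting with or after the members. A called gene that this rule would name is not reported here.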

Additional observations from a re-analysis of the deposited data

Results flagged for a closer look

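Id2 in KO vs WT and ID2 in BIX-01294 vs DMSO moved in opposite directions, with every KO library above every WT library (log2 fold change 0.89) and every BIX-01294 library below every DMSO library (−0.35). The difference between the comparisons was not tested, since species, cell source and perturbation all differ. Under the pan-NK scaling, which moved the median of all genes to −0.76, Id2 was at 0.15.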

How the results depend on the processing

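The number of genes called in KO vs WT was 1565, and it was 0 with the thresholds of the study (by edgeR, with 2080 higher and 2639 lower at an unadjusted p under 0.05), 3087 with DESeq2, the tool of the study, 1495 with DESeq2 at the thresholds of the study (396 higher, 1099 lower, tried after seeing the data), 8725 with pan-NK scaling (41 higher, 8684 lower) and 0 (without KO replicate 2 or 3) to 3530 (without WT replicate 2) with each library left out, with 99 without WT replicate 1 and 14 without WT replicate 3. Called mouse members numbered 2, but 0 with those thresholds (Id2 0.89, Nfil3 0.65) by edgeR, 2 with them by DESeq2, again Id2 and Nfil3, 4 with DESeq2 at an adjusted p under 0.05 (Id3 −0.83 and Tox 0.55 added), 1 with pan-NK scaling (Id2 0.15, Id3 −1.61, Nfil3 −0.10, Tox −0.18, Ets1 −0.45) and 0 to 5 with a library left out, where log2 fold changes were 0.78 to 1.03 for Id2, 0.50 to 0.74 for Nfil3, −1.19 to −0.58 for Id3, 0.44 to 0.73 for Tox and 0.20 to 0.43 for Ets1. KO and WT share replicate numbers, but same-numbered libraries did not all deviate together (correlations 0.28, 0.35 and −0.19), and with the replicate number as a block 3222 genes and 3 members were called, Tox being added (0.55, adjusted p = 0.0144), and no other member's call changed. The cause of these changes was not tested. The human count was 4692 genes, and 1485 with the thresholds of the study, which left 0 of the 3 called members (ID2 −0.35, NFIL3 0.30, TOX −0.21), as did DESeq2 with them (1484 genes, with ID2 at −0.35, NFIL3 at 0.30 and TOX at −0.20). With a library left out 2 to 4 members were called, with TOX between −0.24 and −0.17 and ETS1 between 0.10 and 0.16. The other scalings, filters and limma-voom kept every member's direction and side of the threshold in both species. No paired analysis was made for BIX-01294 vs DMSO because no label links the control columns to the numbered DMSO samples. Among the members, ID3 had the fewest reads, with at most 53 counts in a library.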
